A study of Drosophila melanogaster with 8 samples.

Results

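Neuroblast fate and cell division genes were followed in the ventral nerve cord of Drosophila larvae mutant for the BMP type II receptor gene wit (wishful thinking). The set holds 36 genes chosen by name for their known roles, of which 35 were matched to the 14175 gene identifiers of the deposited counts by FlyBase symbol. Earlier results of these data were known when the set was chosen. The Mcm3 symbol matched no identifier and was not analysed here. The genes fall into 4 classes by role, with 12 for neuroblast fate, 5 for G1 and the G1/S step, 7 of 8 for S phase, and 11 for G2 and mitosis. All 35 passed the filter on low counts, and the lowest estimated count of any of them in any library was 161.

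RNA came from nerve cords of wandering female larvae of the last instar, with the brain lobes cut away, in a w1118 background. Mutants were witA12, st1 over witB11, st1, and controls were witA12, st1 over a wild-type chromosome, so every library carried at least 1 mutant wit allele and 1 st1 marker. Each genotype had 4 libraries, and each library pooled 25 nerve cords of larvae raised at 25 °C. The lesions in the alleles are not given in the labels, and the wit transcript does not check the genotype, since controls had 90.6 ± 3.43 CPM of it and mutants 86.8 ± 3.97 CPM (SD, n = 4 in both; adjusted p = 0.371 with edgeR). CPM is a gene's counts scaled to the same total in every library, after TMM adjustment of the totals.

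Neuroblasts are the neural stem cells of the fly. They divide asymmetrically, renewing themselves and giving off a smaller daughter that divides again into neurons or glia, and at this larval stage the nerve cord holds both dividing neuroblasts and many more differentiated neurons. Fate determinants such as Miranda, Prospero, Brat and Numb are sorted into the smaller daughter at division, while cyclins, kinases, replication factors and checkpoint proteins drive the cycle in both cells. In bulk tissue, fewer cells of a type and less RNA per cell cannot be told apart.

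Levels were compared between genes per kb of merged exon, since longer transcripts collect more reads. The homeodomain gene pros and the translational repressor gene brat were highest in controls, at 380 ± 51.6 and 217 ± 8.93 CPM per kb (SD, n = 4). Both are also expressed outside neuroblasts. The other 33 genes lay between the replication clamp gene PCNA, at 54.5 ± 1.91 CPM per kb, and the transcription factor gene grh, at 4.86 ± 0.205 CPM per kb. Next below PCNA came the S phase activator gene E2f1 with 45.6 ± 1.2, the temporal factor gene cas with 43.6 ± 2.87 and the Miranda adaptor gene mira with 39.5 ± 1.45 CPM per kb. The SDs of E2f1 and cas overlap, as do those of cas and mira, so these orders are not resolved. The neuroblast transcription factor genes ase, wor and dpn were at 13.6, 7.99 and 7.02 CPM per kb. Cell cycle genes such as Mcm5 (13.8), CycD (7.93) and CycE (7.81) lay at similar levels. The kinase gene aurA, at 4.96 ± 0.138, was within the SD of grh.

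**Figure D1:**
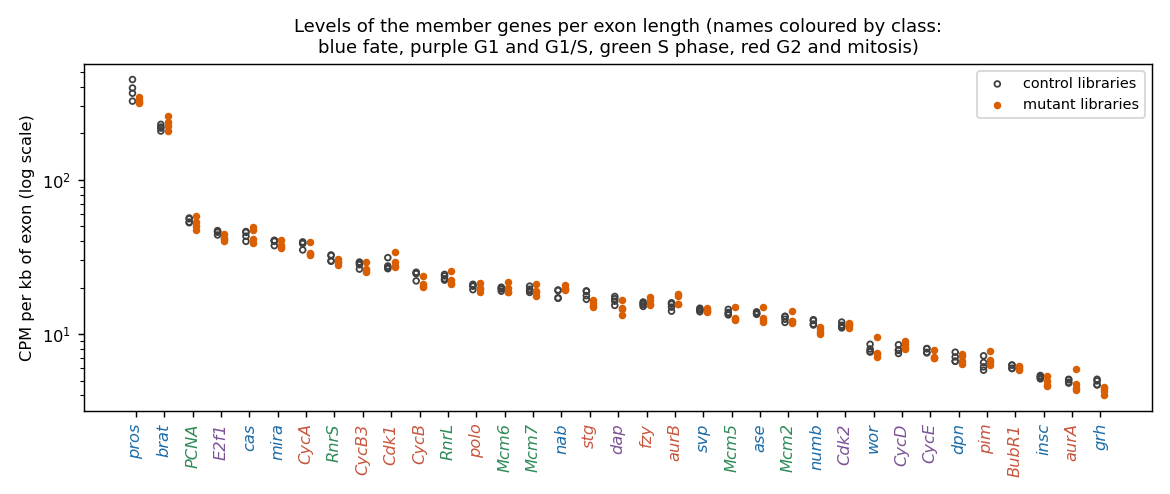
Level of each gene in CPM per kb of exon (log scale) in the 4 control libraries (open points) and the 4 mutant libraries (orange points), ordered by the control mean. Apart from pros and brat, the genes lie within a band from about 4.86 (grh) to 54.5 (PCNA) CPM per kb in controls, and genotype differences are small beside differences between genes.

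Across all 8 libraries the genotypes differed little. Transcripts of stg, numb and grh were lower in mutants, each by between 10.6% and 13.6%, and no member was higher. Thus 3 of 35 members were called lower, against 8.66% of the 9176 genes tested, and 0 of 35 were called higher, against 6.12% (edgeR quasi-likelihood test, adjusted p under 0.05 over all genes). At an unadjusted p under 0.05 there were 10 of 35 members, a share close to the 2773 of all 9176 genes tested. DESeq2 called 0 members higher and limma-voom 0. The share called lower, 8.57%, is near that of all genes. The median log2 fold change of the 35 was -0.04, beside 0.01 for all genes tested, and 25 of the 35 values were below 0, beside 48.1% of all genes. Where the labels do not say whether libraries came from separate crosses, p-values measure the spread between these pools.

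The strongest call was stg (FBgn0003525, chromosome 3R, 29251826 to 29255800), which encodes the phosphatase that releases Cdk1 for entry into mitosis. Its values were 54.3, 57.9, 58.3 and 51.4 CPM in control libraries 1 to 4 and 50.6, 48.6, 46.0 and 46.6 CPM in mutant libraries 1 to 4. All mutants were below all controls, the closest pair being control 4 and mutant 1. The level fell by 13.6% (log2 fold change -0.21, SE 0.05, edgeR adjusted p = 0.0149). This call was lost without control library 2 or 3 or mutant library 3, with adjusted p of 0.0541, 0.0537 and 0.0503.

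Numb protein inhibits Notch signalling in the daughter cell that inherits it. The numb gene (FBgn0002973, chromosome 2L, 9437469 to 9464184) was at 57.1, 60.1, 60.9 and 56.2 CPM in controls and at 54.8, 50.4, 49.3 and 53.2 CPM in mutants, without overlap. It fell by 11.4% (log2 fold change -0.17, SE 0.04, edgeR adjusted p = 0.0230). Leaving out control library 2 or 3 or mutant library 2 or 3 ended this call, with adjusted p from 0.0714 to 0.0785.

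Grainy head, the product of grh, is a transcription factor of late neuroblasts. The grh gene (FBgn0259211, chromosome 2R, 17801132 to 17842820) was at 43.1, 45.7, 46.8 and 43.1 CPM in controls and at 41.2, 39.5, 37.1 and 41.9 CPM in mutants. The groups did not overlap here either, and mutant 4, not mutant 1, was the highest mutant. It fell by 10.6% (log2 fold change -0.16, SE 0.05, edgeR adjusted p = 0.0424). That call was lost without any 1 control library or without mutant library 2 or 3, at adjusted p from 0.0504 to 0.127.

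Groups of 4 and 4 did not overlap for 3 members lower in mutants, the same 3, against 11.7% of all genes, and for 1 member higher, against 8.82%. The latter was nab, a transcriptional cofactor gene, at 42.4, 42.1, 47.2 and 47.7 CPM in controls and 51.1, 48.6, 48.8 and 47.7 CPM in mutants. Control 4 and mutant 4 of nab round to the same value, and its log2 fold change of 0.13 did not pass the test (edgeR adjusted p = 0.104).

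Mutant library 1 stood apart from the other mutants over most of these genes. It was the highest of the 4 mutant libraries for 29 of 35 members, or 82.9%, beside 34.5% of all genes tested. That held for all 11 G2 and mitosis genes, 6 of 7 S phase genes, 4 of 5 G1 and G1/S genes and 8 of 12 fate genes. It was the highest of all 8 libraries for 19 of 35 members, beside 1713 of the 9176 genes tested. The exceptions were pros and brat, where it was the lowest of the mutants, and grh, svp, CycD and RnrS, where it ranked second. This library also had the lowest total, 20923717 estimated counts against 25410835 to 32740480 in the other 7, and the part of depth in these values was not tested.

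**Figure D2:**
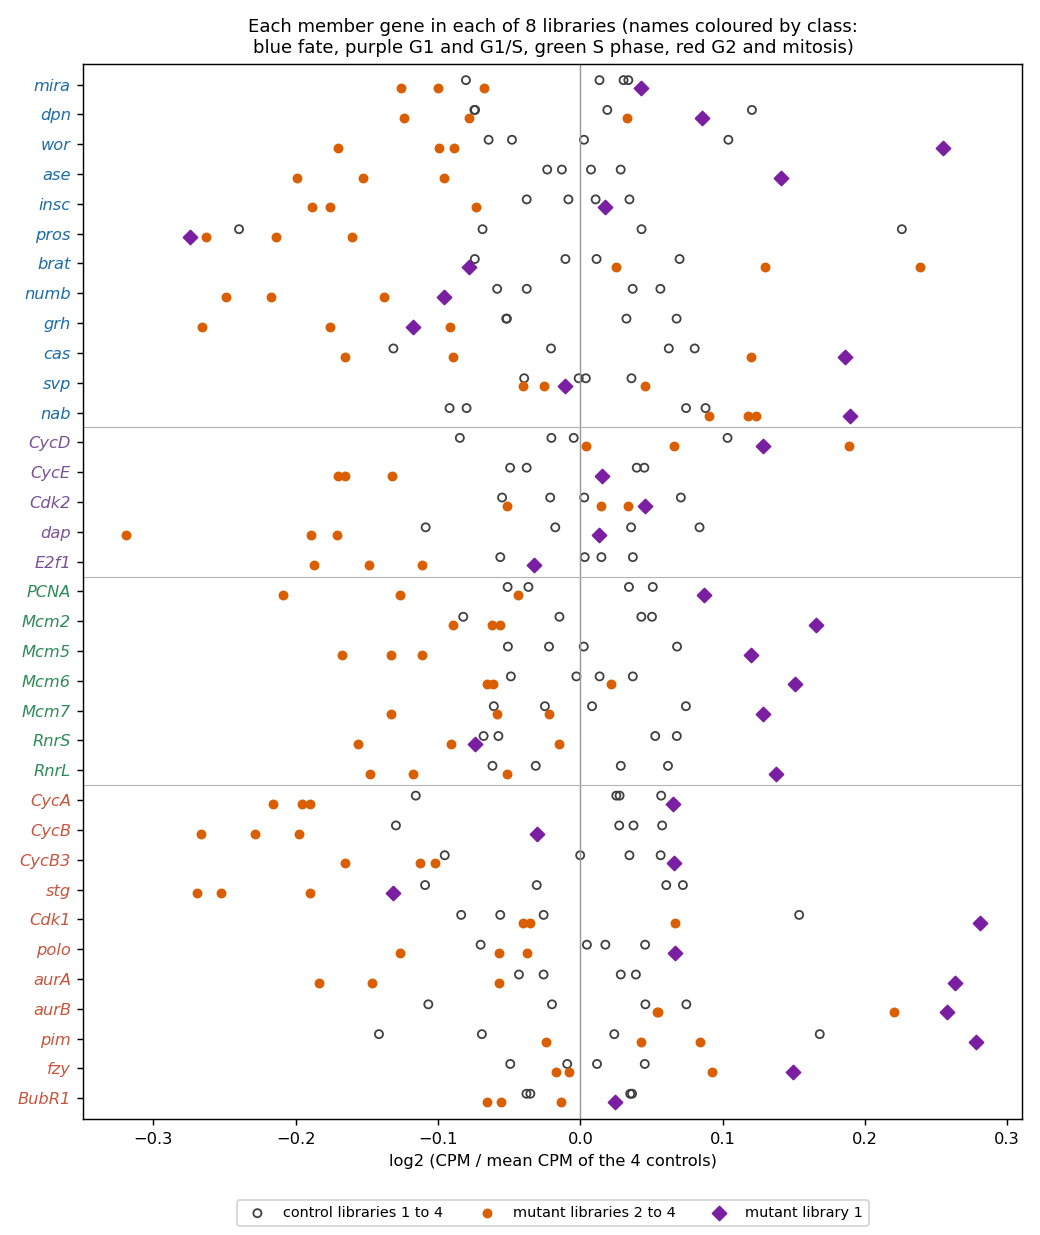
Level of each gene in each library as log2 of CPM over the mean of the 4 controls. Open points are controls, orange points mutant libraries 2 to 4 and purple diamonds mutant library 1, which is the rightmost mutant for 29 of 35 genes and lies among or above the controls for most.

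Without mutant library 1, 11 of 35 members were called lower (31.4%), against 12.1% of the 9272 genes then tested, and 0 were called higher, against 11.4%. At an unadjusted p under 0.05 there were 18 of 35 members, against 3327 of the 9272 genes. The median log2 fold change of the 35 moved to -0.10, beside 0.00 for all genes. Values of mutants 2 to 4 lay below all controls for 14 members, against 16.5% of all genes, and above them for nab alone, against 16.3%. The mutant library to leave out was chosen with these data known. Leaving out mutant library 2, 3 or 4 in its place gave 1, 0 and 3 members called lower, so the larger count belongs to the set of libraries without the first.

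**Figure D3:**
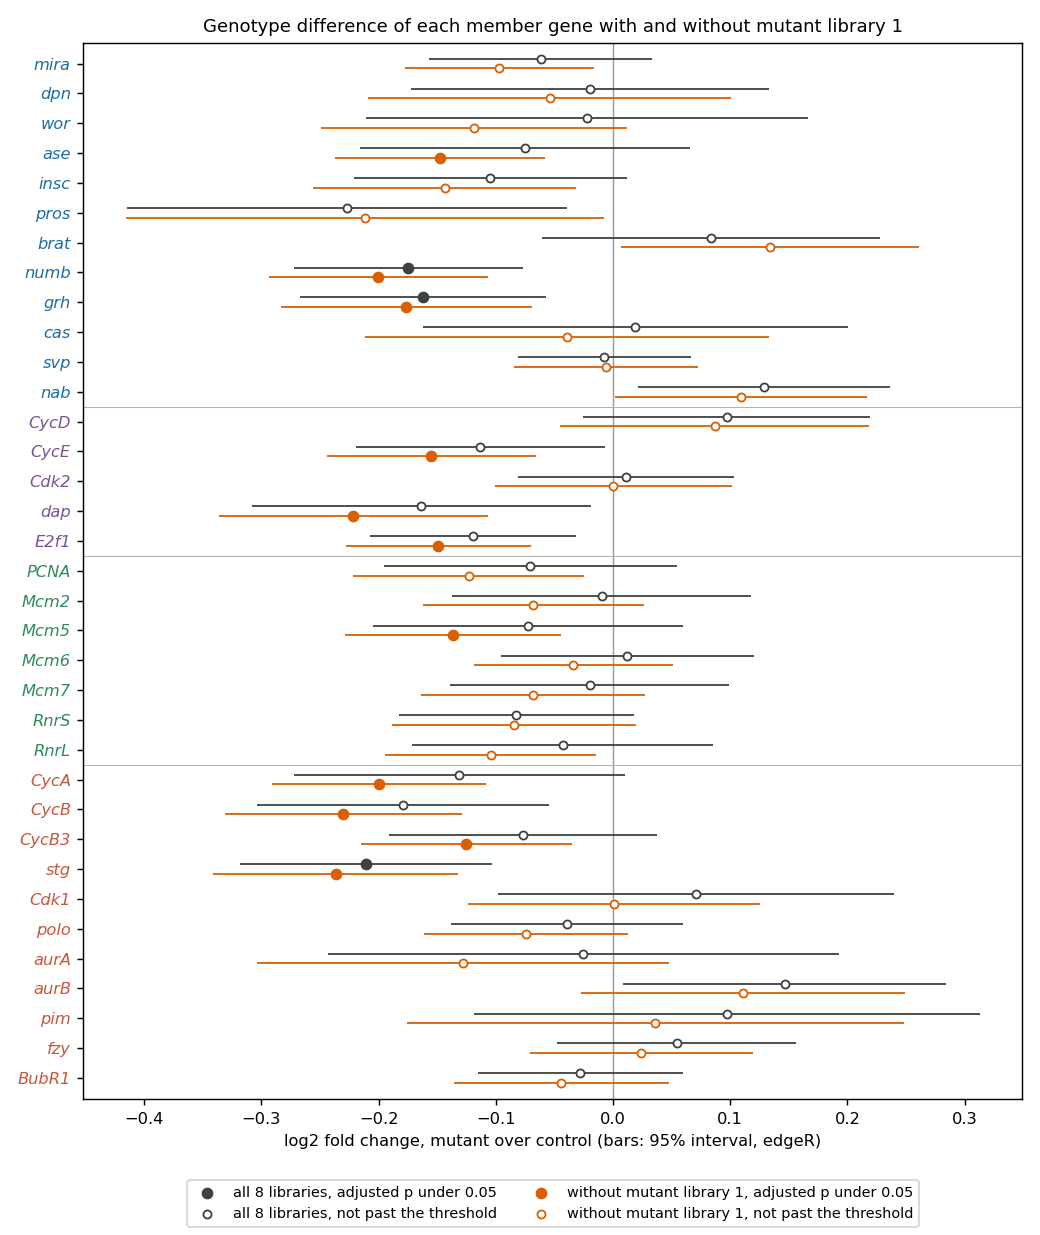
Log2 fold change of each gene, mutant over control, with 95% intervals from edgeR, for all 8 libraries (grey) and without mutant library 1 (orange). Filled points passed an adjusted p of 0.05, 3 genes with all libraries and 11 without mutant library 1, all of them below 0.

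Fate genes were compared first by role. The transcription factor genes that mark neuroblasts were close between genotypes, with log2 fold changes of -0.02 for dpn, -0.02 for wor and -0.08 for ase (edgeR adjusted p = 0.882, 0.894 and 0.469). The proneural-type factor gene ase was at 33.8, 32.6, 33.3 and 32.9 CPM in controls and at 36.6, 29.8, 31.0 and 28.9 CPM in mutants. Its first mutant library was above every control and the other 3 were below every control. Without that library ase was called lower (log2 fold change -0.15, SE 0.04, edgeR adjusted p = 0.0212). The zinc finger gene wor showed the same order, with 17.0 to 19.1 CPM in controls, 21.2 CPM in mutant 1 and 15.8 to 16.7 CPM in mutants 2 to 4, but did not pass without mutant 1 (-0.12, adjusted p = 0.179).

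Genes of asymmetric division differed among themselves. The spindle orientation gene insc was at 20.6, 19.9, 20.9 and 20.3 CPM in controls and 20.7, 18.1, 19.4 and 17.9 CPM in mutants, and had a log2 fold change of -0.10 (edgeR adjusted p = 0.213; 0.0632 without mutant 1). For mira, which encodes the adaptor that carries Prospero and Brat, the change was -0.06 (adjusted p = 0.374; 0.0778 without mutant 1). Transcripts of its cargo went in opposite directions without passing the test: pros had -0.23 (95% interval -0.42 to -0.04, adjusted p = 0.1004) and brat had 0.08 (-0.06 to 0.23). The pros values ran from 8018 to 11074 CPM over controls, with control 1 lowest and control 4 highest, and from 7830 to 8471 CPM over mutants. The pros gene passed without control 1 (edgeR adjusted p = 0.0239) and with DESeq2 (0.0430), but not without control 4 (0.235).

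Temporal genes, which act at successive stages of a neuroblast's life, did not move together. The nuclear receptor gene svp was at 78.0 to 82.2 CPM in controls and 78.0 to 82.7 CPM in mutants, with a log2 fold change of -0.01 and a 95% interval of -0.08 to 0.07. The zinc finger gene cas varied more between mutants, at 156, 129, 149 and 123 CPM against 125, 135, 143 and 145 CPM in controls, and its interval was -0.16 to 0.20. With grh lower and nab not overlapping upward, these 4 genes gave values from -0.16 to 0.13.

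At the G1/S step, 3 of 5 genes had unadjusted p under 0.05, beside 2773 of all 9176 genes tested. None of the 5 passed edgeR's test over all genes with all libraries, and 3 passed without mutant 1. With all libraries DESeq2 called E2f1 lower, and limma-voom called CycE, dap and E2f1 lower. The limma-voom fit used sample quality weights, so the libraries need not count equally in it. E2f1 encodes the transcription factor that switches on S phase genes. It was at 294, 297, 283 and 301 CPM in controls and at 287, 272, 265 and 258 CPM in mutants, so that only mutant 1 overlapped with the controls. The log2 fold change was -0.12 (SE 0.04, adjusted p = 0.0688), and -0.15 without mutant 1 (adjusted p = 0.0102).

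The cyclin gene CycE, whose product drives S phase entry, was at 40.7, 40.5, 38.1 and 38.4 CPM in controls and at 39.8, 35.2, 35.97 and 35.0 CPM in mutants. Its log2 fold change was -0.11, and -0.15 without mutant 1 (edgeR adjusted p = 0.141 and 0.0163). The inhibitor of Cyclin E and Cdk2 encoded by dap was at 41.3, 44.3, 42.8 and 38.8 CPM in controls and at 42.2, 33.5, 37.1 and 36.6 CPM in mutants. It had -0.16, and -0.22 without mutant 1 (adjusted p = 0.121 and 0.00897). The driver gene CycE and the brake gene dap were thus both lower in mutants 2 to 4. The kinase gene Cdk2 was level (0.01, 95% interval -0.08 to 0.10), and the growth-linked cyclin gene CycD had 0.10 (-0.03 to 0.22), neither passing in either set.

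S phase genes differed little. None of the 7 passed with all libraries (edgeR; 0 also at an unadjusted p under 0.05 and with DESeq2 and limma-voom), log2 fold changes ran from -0.08 for RnrS to 0.01 for Mcm6, and the 95% intervals together spanned -0.20 to 0.12. PCNA, which encodes the sliding clamp of DNA polymerase, was at 60.4, 59.7, 56.8 and 56.2 CPM in controls and at 61.9, 50.4, 53.4 and 56.5 CPM in mutants. Its first mutant library was the highest of all 8, and of the others only mutant 4 reached the control range.

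Subunit genes of the replicative helicase were alike in where mutant 1 lay, but less so in the other mutants. Mutant 1 was the highest of 8 libraries for Mcm2, Mcm5, Mcm6 and Mcm7, with 40.9, 36.7, 60.7 and 52.0 CPM. Mutants 2 to 4 were at 34.3 to 35.1 CPM for Mcm2, within the control range of 34.5 to 37.8 CPM but for the lowest. For Mcm5 they were at 30.1 to 31.3 CPM, below the control range of 32.6 to 35.4 CPM. Without mutant 1 the Mcm5 gene was called lower (log2 fold change -0.14, SE 0.04, edgeR adjusted p = 0.0340), and Mcm2, Mcm6 and Mcm7 had -0.07, -0.03 and -0.07 without passing.

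The ribonucleotide reductase genes, which supply deoxynucleotides, differed in where mutant 1 lay. The large subunit gene RnrL was at 66.1 CPM in mutant 1, above the control range of 57.6 to 62.7 CPM, and at 54.2 to 58.0 CPM in the other mutants. The small subunit gene RnrS was at 46.9, 44.3, 46.4 and 48.9 CPM in mutants, where mutant 4 was highest, against 47.2 to 51.8 CPM in controls. All 7 S phase genes had values below 0 without mutant 1, with a median of -0.08 and intervals from -0.23 to 0.05.

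Among G2 and mitosis genes, those called lower without mutant 1 were stg and the 3 mitotic cyclin genes, and the kinase and anaphase genes did not pass. The cyclin gene CycB was at 75.0, 76.6, 75.5 and 67.3 CPM in controls and at 72.1, 64.1, 62.8 and 61.2 CPM in mutants, and mutant 1 alone overlapped with control 4. Mutants thus had a log2 fold change of -0.18 (SE 0.06, edgeR adjusted p = 0.0552). CycB passed in 4 of 14 alternatives, at 0.0395 by DESeq2, 0.00603 by limma-voom, 0.0288 without control 4 and 0.00337 without mutant 1. It did not pass without control 1, 2 or 3 or mutant 2, 3 or 4, at edgeR adjusted p from 0.1169 to 0.1504. Nor did it pass with the replicate block (0.0549), DESeq2 size factors (0.0522) or the other filters (0.0557 and 0.0508).

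The CycA gene, for the cyclin needed before mitosis, was at 115, 113, 113 and 102 CPM in controls and at 116, 96.8, 95.4 and 97.1 CPM in mutants. Mutant 1 lay above all controls and the other 3 below all controls. The log2 fold change went from -0.13 to -0.20 on leaving mutant 1 out (edgeR adjusted p = 0.199 and 0.00429). With all libraries, but weighted by sample quality, limma-voom called CycA lower (-0.18, adjusted p = 0.0188). What part the weight of mutant 1 had in that call was not tested. CycB3, another mitotic cyclin gene, had 75.9 to 84.3 CPM in controls, 84.9 CPM in mutant 1 and 72.3 to 75.6 CPM in mutants 2 to 4, with -0.08 and, without mutant 1, -0.13 (adjusted p = 0.355 and 0.0448).

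Their partner kinase gene Cdk1 was at 29.8, 33.8, 29.2 and 28.7 CPM in controls and 36.9, 29.5, 31.8 and 29.6 CPM in mutants. Its log2 fold change was 0.07 with all libraries and 0.00 without mutant 1, with a 95% interval of -0.12 to 0.13 in the latter set. The mitotic kinase gene aurB, for the chromosomal passenger complex, was at 16.6 to 18.9 CPM in controls and 18.6 to 21.4 CPM in mutants (0.15, 95% interval 0.01 to 0.28, edgeR adjusted p = 0.143). The centrosomal kinase gene aurA was at 7.58 to 8.03 CPM in controls, 9.38 CPM in mutant 1 and 6.88 to 7.51 CPM in the other mutants. Those 3 lay below all controls, but aurA did not pass without mutant 1 (-0.13, adjusted p = 0.285).

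For the mitotic kinase gene polo the log2 fold change was -0.04 (95% interval -0.14 to 0.06). The securin gene pim, whose product is destroyed as anaphase begins, had 0.10 (-0.12 to 0.31). That destruction is triggered through fzy, the gene of an activator of the anaphase-promoting complex, which had 0.05 (-0.05 to 0.16), and BubR1, a spindle checkpoint gene, had -0.03 (-0.12 to 0.06). None of these 4 passed in either set of libraries (edgeR).

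Set side by side, the classes did not order as fate against division. Median log2 fold changes with all libraries were -0.04 for fate, -0.11 for G1 and G1/S, -0.04 for S phase and -0.03 for G2 and mitosis. Without mutant 1 they were -0.11, -0.15, -0.08 and -0.07. Members called lower without mutant 1 numbered 3 of 12 fate genes, 3 of 5 G1 and G1/S genes, 1 of 7 S phase genes and 4 of 11 G2 and mitosis genes (25.0%, 60.0%, 14.3% and 36.4%), beside 12.1% of all genes tested, so the S phase share is near that of all genes. With so few genes a class these counts are descriptions, and no difference between classes was tested.

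By library, the median over fate genes of log2 CPM minus the control mean was -0.04, -0.01, 0.04 and -0.01 in controls and 0.03, -0.11, -0.09 and -0.11 in mutants. For S phase genes it was 0.04, 0.05, -0.02 and -0.05 in controls and 0.13, -0.13, -0.09 and -0.05 in mutants. For G2 and mitosis genes it was 0.03, 0.04, 0.03 and -0.09 in controls and 0.07, -0.07, -0.10 and -0.06 in mutants. Mutants 2 to 4 lay below every control for fate genes, whereas control 4 lay within their range for G2 and mitosis genes and at the highest of them for S phase genes. G1 and G1/S genes ran from -0.05 to 0.07 in controls and were 0.02, -0.11, -0.13 and -0.17 in mutants. The median over all genes tested stayed between 0.00 and 0.01 in every library.

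**Figure D4:**
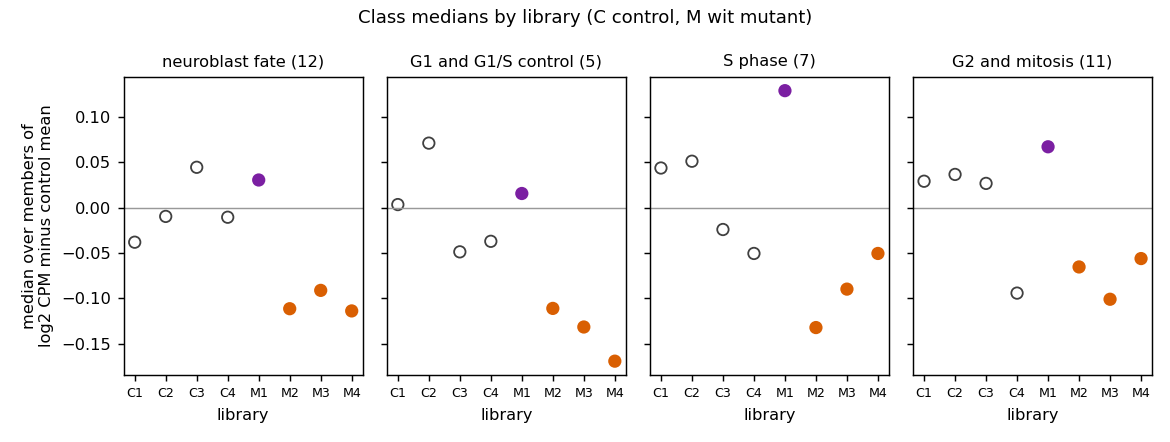
Median over the genes of each class of log2 CPM minus the control mean, in each library (C1 to C4 controls, M1 to M4 mutants, number of genes in brackets). Mutant library 1 (purple) is at 0.02 to 0.13 and the other mutants (orange) are at -0.05 to -0.17.

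Further genes of the same processes were described from lists of polarity and fate, S phase, mitosis, G1 control and cell death genes. Of 34 tested polarity and fate genes, 4 were called lower and 3 higher (edgeR), beside 8.66% and 6.12% of all genes tested. The transcription factor gene tap went from 22.8 ± 0.90 to 13.9 ± 1.92 CPM (SD, n = 4 each; log2 fold change -0.72, adjusted p = 0.000197), larger than for any member. The gene spdo, whose product Sanpodo acts with Numb on Notch in sister cells, went from 19.6 ± 0.31 to 15.5 ± 1.44 CPM (-0.34, adjusted p = 0.00456). The zinc finger gene klu had -0.25 (adjusted p = 0.00814) and the centrosome gene cnn had 0.19 (adjusted p = 0.0119). For these 4 genes mutant 1 lay on the mutant side, with 15.9, 17.0, 25.96 and 134 CPM against control ranges of 21.8 to 23.9, 19.3 to 20.1, 27.1 to 31.1 and 124 to 132 CPM.

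Of 38 further S phase genes, 1 was called lower, the replication licensing gene dup (-0.21, edgeR adjusted p = 0.0139), and 0 were called higher (0 by DESeq2, 2 by limma-voom, and 6 in either direction at an unadjusted p under 0.05). Of 79 further mitosis genes 0 were called lower and 4 higher, with 17 at an unadjusted p under 0.05 and 1 called lower by DESeq2 and by limma-voom. The 4 were Cdc16 (0.19, adjusted p = 0.00972), a subunit gene of the anaphase-promoting complex, cnn again, the kinetochore gene Nuf2 (0.30, adjusted p = 0.0205) and the spindle gene wac (0.16, adjusted p = 0.0319). Nuf2 lost its call without control 1 or 2, and wac without control 1, 2 or 4 or mutant 2, 3 or 4 and by DESeq2. Of all 9176 genes tested, 2773 had an unadjusted p under 0.05. Median log2 fold changes were -0.08 for the polarity and fate list (22 of 34 below 0), 0.01 for the S phase list (19 of 38) and 0.03 for the mitosis list (27 of 79). Mutant 1 was the highest mutant for 50 of the 79 mitosis genes (63.3%), beside 34.5% of all genes tested.

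Without mutant 1, the polarity and fate list held 10 lower and 4 higher calls of 34, the S phase list 5 and 1 of 38, and the mitosis list 3 and 5 of 79. Of all genes then tested, 12.1% were called lower and 11.4% higher. With all libraries, only 2 of 16 further G1 control genes had values below 0, with a median of 0.06. Without mutant 1 there were 3 of 16, with a median of 0.04. The list thus did not share the lower median of the 5 G1 and G1/S members. With all libraries 1 of the 16 was called lower and 1 higher. The growth regulator gene Myc went from 404 ± 25.2 to 302 ± 34.6 CPM (-0.42, edgeR adjusted p = 0.00601), and SkpA had 0.11 (adjusted p = 0.0401), lost without control 2, 3 or 4 or mutant 2 or 3. Of 8 cell death genes Diap1, a caspase inhibitor gene, was higher (0.15, adjusted p = 0.0377), and this was lost without control 2, 3 or 4 or mutant 2, 3 or 4. Without mutant 1, 3 of the 8 were called higher.

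Markers of other cells were measured in the same libraries. Calls in these lists are to be read beside the 8.66% of all genes tested that were called lower and the 6.12% called higher. Neuron markers were abundant, as the labelled tissue implies, and 6 of 7 were called lower in mutants, among them Syx1A (-0.34) and nSyb (-0.22). Their summed level ran from 6866 to 7388 CPM in controls and from 5587 to 6371 CPM in mutants. Of 9 glia markers 4 were lower, with sums of 1801 to 1865 CPM and 1090 to 1620 CPM, mutant 1 being the highest mutant, and with wrapper (-0.38) and Eaat1 (-0.21) the first by adjusted p. The call of Eaat1 was lost without control 2 or 3 or mutant 2 or 4.

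Imaginal disc and optic lobe cells also divide. Against 8.66% of all genes called lower and 6.12% called higher, a single call in so short a list is not a result about its cells. Of 12 tested disc markers 4 were lower and 1 higher, and the sum of 14 matched markers was 1606 to 1666 CPM in controls and 1508 to 1613 CPM in mutants, where mutant 1 was at 1515 CPM. Of 9 tested optic lobe and brain markers 2 were lower, and the sum of 11 was 231 to 241 CPM in controls and 220 to 226 CPM in mutants, where mutant 1 was highest at 226 CPM. The optic lobe factors ato and tll had at most 14 and 9 counts in any library and were not tested, and no list had a marker at 0 throughout. Sums in controls and mutants were 180 to 199 and 175 to 211 CPM for hemocytes (1 of 5 tested was lower), and 1146 to 1290 and 1015 to 1074 CPM for fat body (1 of 8 lower, 1 higher). The fat body sum does not stand for most of its list, since only 2 of the 8 values were below 0. Their median log2 fold change was 0.23, and 0.41 without mutant 1. Sums were 85.3 to 99.2 and 91.4 to 96.5 CPM for muscle (1 of 7 lower), 145 to 173 and 150 to 205 CPM for trachea (1 of 5 higher), and 5.76 to 8.05 and 5.78 to 6.76 CPM for germline (0 of 2; edgeR, 0 at an unadjusted p under 0.05, and 0 by DESeq2 and limma-voom). The part of these cells in the members' values was not tested.

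Mutants carried a witB11, st1 chromosome 3 in place of the wild-type one of controls, and effects of other loci on it cannot be told apart from those of wit. Of the 35 members 15 lie on that chromosome, as do 1 of the 3 called with all libraries (stg) and 5 of the 11 called without mutant 1. Exons of Mcm7, dpn and Cdk2 overlap on the opposite strand with CR45871 over 81.7%, with CR44275 over 59.3% and with CG17267 over 43.9% of their length, and those of insc overlap on the same strand with sktl over 9.24%. Smaller overlaps on the opposite strand include those of aurA with CG12213 over 9.70% and of grh with CR45270 over 5.66%. Libraries were stranded, but the sources used here do not say whether counting used strand, so the values of such genes are less certain.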

How the data were processed

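Values were deposited as estimated counts for each gene, in 1 file per library. Per the submitters' processing notes, kallisto 0.43.0, DESeq2 and build BDGP6 were used, with no role stated for DESeq2, and the summing of transcripts to genes is not described there. Of these values 31.4% were not whole, and all were rounded. Symbols were found for 13948 of 14175 identifiers. Ensembl release 115 of that assembly gave coordinates and exon lengths.

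Low genes were removed with filterByExpr (minimum count 10; edgeR 4.0.16), totals were adjusted by TMM, and mutants were tested against controls two-sided by edgeR's quasi-likelihood test (robust, no covariate), with Benjamini-Hochberg adjustment over all genes tested and calls at 0.05. Standard errors and 95% intervals come from its F statistic. Log2 CPM used a prior count of 2. R 4.3.3, DESeq2 1.42.0, limma 3.58.1 and matplotlib 3.10.9 were also used.

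The members, the lists and the library to leave out were chosen with earlier results of these data known. Of 266 other list entries 251 matched an identifier. All members are named, with up to 4 called genes of each process list, by smallest adjusted p, and up to 2 markers of neurons and of glia, while other marker lists are given as counts and sums. Totals ran from 20923717 to 32740480 counts per library, and 3 counts are 0.0916 to 0.143 CPM, for counting error only. Pairs of libraries of a genotype differed by more than sampling noise (chi-square per degree of freedom 3.75 to 35.6). Alternatives were the size factors and the Wald test of DESeq2, limma-voom (sample quality weights), 2 other filters, a replicate block and leaving out each library.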

Additional observations from a re-analysis of the deposited data

Results flagged for a closer look

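Within groups of 4 libraries, 4 of 70 groups of values over the 35 genes held a library far from the others, where chance flags about 1 in 20 groups (5%). In 3 of these mutant library 1 was far above the other mutants. It had 21.2 CPM of wor against 15.8 to 16.7 CPM, 40.9 CPM of Mcm2 against 34.3 to 35.1 CPM, and 116 CPM of CycA against 95.4 to 97.1 CPM. In the fourth, control library 4 had 67.3 CPM of CycB, below the 75.0 to 76.6 CPM of the other controls. No cause was tested.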

How the results depend on the processing

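Members called higher numbered 0 in all 14 alternatives. Members called lower, 3 in the reported test, were 6 with the DESeq2 Wald test, 8 with limma-voom and 1 with the replicate block, and from 0 to 11 on leaving out 1 library each (0 without control 2, control 3 or mutant 3, 1 without mutant 2, 11 without mutant 1). All genes called lower, 795 in the reported test, moved too, to 904 with DESeq2, 1122 with limma-voom, 553 with the block, 524, 540, 606 and 557 without control 2, control 3, mutant 3 and mutant 2, and 1124 without mutant 1. Under the replicate block stg alone passed (adjusted p = 0.0419), and numb, grh and dup did not (0.0869, 0.125 and 0.0538). Replicate numbers did not pair the libraries: deviations of same-numbered libraries correlated at -0.31 to 0.04. Class medians moved by less than the spread between libraries in every alternative, except that of fate genes without mutant 1 (-0.11, with up to -0.018 on leaving out other libraries). That spread is widened by mutant 1 itself, so it cannot show that the medians are stable without this library. Leaving mutant 1 out took the median from -0.04 to -0.08 for S phase, from -0.03 to -0.07 for G2 and mitosis, and from -0.11 to -0.15 for G1 and G1/S. Genes called higher, 562 in the reported test, were 304 without control 2, 311 and 359 without controls 3 and 4, 361 and 350 without mutants 2 and 3, 301 with the block, 989 with limma-voom and 1060 without mutant 1. Of the members, 9 that passed no test changed sign, as single libraries left out gave -0.054 to 0.023 for dpn, -0.12 to 0.029 for wor, -0.039 to 0.079 for cas, -0.022 to 0.0068 for svp, -0.0080 to 0.035 for Cdk2, -0.068 to 0.019 for Mcm2, -0.034 to 0.041 for Mcm6 (-0.033 with limma-voom), -0.069 to 0.019 for Mcm7 and -0.13 to 0.027 for aurA. The cause was not tested.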
